A study of Rattus norvegicus with 2 samples.

Results

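Pulmonary surfactant genes were followed across 2 arrays of rat lung. The 10 genes are *Sftpc*, *Sftpb*, *Sftpa1*, *Sftpd*, *Napsa*, *Lamp3*, *Abca3*, *Slc34a2*, *Lpcat1* and *Etv5*. They were chosen by name from the biology of the alveolar type 2 cell, with earlier results of these data known. Every probe set whose platform annotation gave 1 of these symbols and no other was taken, which gave 14 probe sets for the 10 genes, of 14217 genes and 31042 probe sets measured. A probe set is a group of short probes against 1 transcript, and its value here is the authors' deposited RMA value (robust multi-array average, a summary of the probes on a log2 scale). The study asked how reproducible global expression is in rat lung, with total RNA from each of 2 experimenters hybridised to an Affymetrix Rat Genome array. Experimenters 1 and 2 are numbered as in the titles of their arrays. The labels give the tissue as lung for both and do not give strain, sex, age, treatment, number of animals or whether both experimenters used the same lung or RNA. With 1 array per experimenter no replicate error exists, so no difference below carries a test. Each difference of the 10 genes is set beside the differences of all probe sets. All differences are experimenter 2 minus experimenter 1 on the log2 scale.

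Surfactant is a film of phospholipid and protein that lowers surface tension in the alveolus. Alveolar type 2 cells make it, pack it into lamellar bodies, which are lysosome-related organelles, and release it by exocytosis. The hydrophobic proteins SP-B and SP-C work in the film itself, the collectins SP-A and SP-D bind microbes and take part in host defence, and the other genes process the proteins, load the lipid, handle phosphate or maintain the cell.

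Of the 10 genes, 7 matched the RefSeq table of upstream sequences of build GRCr8; *Sftpc*, *Sftpd* and *Napsa* had no match. The 250 bases before the start are printed for *Sftpb* and *Sftpa1*, surfactant proteins that 2 probe sets each measured, and for *Etv5*, the gene with the lowest place on both arrays, to show how unlike these upstream windows are. Capitals mark matches on either strand to a pair of short motifs that do not overlap here. One is TATAA, as in the TATA box that positions transcription at many tissue-specific genes. The other is CAAG, part of the motif that the lung factor NKX2-1 binds. The sequences run 5′ to 3′ on the strand of the gene and their coordinates are those of RefSeq, not of the array design.
Sftpb (chr4:105917338-105917587, plus strand): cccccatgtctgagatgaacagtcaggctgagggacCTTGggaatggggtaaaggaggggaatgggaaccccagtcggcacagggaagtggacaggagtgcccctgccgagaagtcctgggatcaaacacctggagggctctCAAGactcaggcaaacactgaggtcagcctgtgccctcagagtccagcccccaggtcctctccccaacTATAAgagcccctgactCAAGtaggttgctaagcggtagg
Sftpa1 (chr16:17042014-17042263, plus strand): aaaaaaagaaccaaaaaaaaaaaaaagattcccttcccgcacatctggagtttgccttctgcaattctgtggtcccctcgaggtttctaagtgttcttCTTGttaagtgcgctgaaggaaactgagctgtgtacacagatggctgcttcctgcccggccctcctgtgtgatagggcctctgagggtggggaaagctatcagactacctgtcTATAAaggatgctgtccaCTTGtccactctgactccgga
Etv5 (chr11:92113013-92113262, plus strand): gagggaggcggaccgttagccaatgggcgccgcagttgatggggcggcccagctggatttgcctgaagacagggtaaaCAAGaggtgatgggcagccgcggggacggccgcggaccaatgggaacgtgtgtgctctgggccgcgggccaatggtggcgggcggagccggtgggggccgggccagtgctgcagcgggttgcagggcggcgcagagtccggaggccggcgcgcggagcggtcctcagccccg

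A TATAA match began 40 bases before the start of *Sftpb* and 39 bases before that of *Sftpa1*, and the other 5 windows held none. Of all 33469 windows of this length, 24.0% held that motif. The *Slc34a2* window held the similar run TATATATA, which the string TATAA does not match, so it was not counted. A CAAG match stood in 5 of the 7 windows, with 3 matches for *Sftpb*, against 86.7% of all windows, so its presence is not particular to these genes. The windows of *Lamp3* (45.6% G and C) and *Sftpa1* (48.4%) lay below the median of all windows, 51.2%, and those of *Sftpb* (58.8%), *Lpcat1* (61.2%), *Slc34a2* (68.8%), *Abca3* (71.6%) and *Etv5* (72.4%) above it. CpG dinucleotides numbered 3 for *Sftpb*, 5 for *Sftpa1* and 27 for *Etv5*, with a median of 5 over all windows. A match is a string of letters and was not tested for binding. In the RefSeq gene table *Sftpa1* and *Sftpd* are near neighbours with 1 coding gene, *Mbl1*, between them, and no other pair of the 10 is that close.

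The arrays as a whole bear on every value below. RMA gives both arrays a nearly common distribution, with values of 2.31 to 14.51 and a median of 6.32 for experimenter 1, and of 2.26 to 14.49 and a median of 6.28 for experimenter 2. Differences over all probe sets centred on a median of -0.052 and spread with an SD of 0.28. The gap between the 3′ and 5′ control probe sets, which widens when labelled RNA is short, was 2.15 for experimenter 1 and 2.71 for experimenter 2 for beta-actin, 0.30 and 0.26 for *Gapdh*, and 1.13 and 1.36 for hexokinase. The part of these gaps in the differences below was not tested.

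The surfactant genes stood high on both arrays and differed little between them. Of the 14 probe sets, 11 lay at or above the 95th percentile of both arrays; the other 3 were the second probe set of *Abca3* and both of *Etv5*. By brightest probe set 0 of the 10 genes were 1.5-fold apart, where 3.24% of all genes were, and 0 were 2-fold apart, where 0.274% were, so these counts are near the background. Of the 14 probe sets 0 were 1.5-fold apart, against 4.35% of all probe sets. The largest difference among the 14 probe sets was 1.21-fold, of *Abca3*. By brightest probe set 3 genes were higher for experimenter 2 and 7 lower, with a median of -0.056; over all genes 41.1% were higher and the median was -0.049. After median centring, which turned the signs of *Sftpc* and *Napsa*, 5 were higher and 5 lower, with a median of -0.0040. A place on the array reflects how well a probe set binds as well as how much transcript is present, so the percentiles locate a probe set and do not order the genes by abundance. In whole lung, fewer alveolar type 2 cells and less RNA per cell cannot be told apart.

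**Figure D1:**
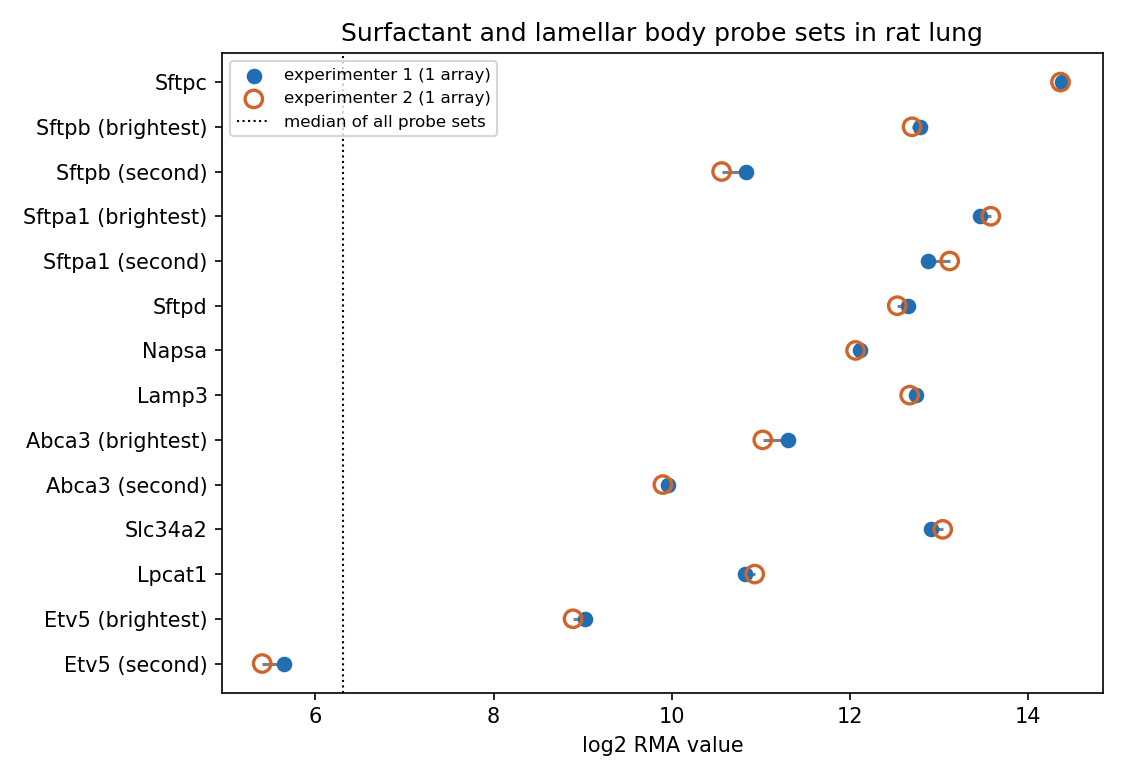
Log2 RMA values (horizontal axis) of the 14 probe sets of the 10 genes, with filled points for the array of experimenter 1 and open circles for the array of experimenter 2; the dotted line is the median of all probe sets, 6.31. For each probe set the points lie within 0.28 of each other, and only the second probe set of *Etv5* lies left of the line.

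The hydrophobic surfactant proteins come first. *Sftpc* encodes SP-C, a small lipoprotein that sits within the lipid film and is made almost solely by alveolar type 2 cells. Its 1 probe set measured 14.39 for experimenter 1 and 14.36 for experimenter 2, a difference of -0.022. It ranked 2 of 31042 probe sets on the first array and 5 on the second, and 92.6% of all probe sets differed by at least as much. Both values lie next to the highest on their array, 14.51 and 14.49, and RMA values carry no flag for saturated probes.

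*Sftpb* encodes SP-B, which fuses membranes and is needed both for the film and for lamellar body formation. Its brightest probe set measured 12.79 and 12.70 for experimenters 1 and 2, a difference of -0.092, at ranks 130 and 143. Its second probe set measured 10.83 and 10.56, a difference of -0.27, at the 96.8th and 96.0th percentiles. Both probe sets were lower for experimenter 2. Of all probe sets, 70.6% differed by at least as much as the brightest and 28.9% by at least as much as the second. The distance between the probe sets was 1.96 on the first array and 2.14 on the second, while the experimenters' values differed by 0.27 or less for either probe set.

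The collectins gave 1 gene that was higher and 1 that was lower for experimenter 2. *Sftpa1* encodes SP-A, an abundant collectin of the air space that binds microbes and surfactant lipid. Its brightest probe set measured 13.46 and 13.58, a difference of 0.12, and its second 12.88 and 13.12, a difference of 0.24. Both probe sets were higher for experimenter 2, the second by 1.18-fold. They lay 0.58 apart on the first array and 0.46 apart on the second, the closest pair among the genes with 2 probe sets. *Sftpd* encodes SP-D, the other lung collectin, and its 1 probe set measured 12.65 and 12.53, a difference of -0.12. It stood at ranks 146 and 174, and 63.6% of all probe sets differed by at least as much. For *Sftpa1* that share was 62.7% by the brightest probe set and 34.1% by the second.

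*Napsa* and *Lamp3* act in protein processing and at the lamellar body membrane, and both differed by about the median of all genes. *Napsa* encodes napsin A, an aspartic protease that takes part in the processing of the SP-B precursor. It measured 12.11 and 12.06, a difference of -0.045, and 85.3% of all probe sets differed by at least as much. *Lamp3* encodes a membrane glycoprotein of the lamellar body, also found in mature dendritic cells, and measured 12.74 and 12.67, a difference of -0.066. For *Lamp3* 78.2% of all probe sets differed by at least as much. The 1.03-fold and 1.05-fold differences of *Napsa* and *Lamp3* were, with that of *Sftpc* at 1.02-fold, the 3 smallest by brightest probe set.

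*Abca3*, the ATP-driven transporter that moves phospholipid into the lamellar body, had the largest difference. Its brightest probe set measured 11.30 for experimenter 1 and 11.02 for experimenter 2, a difference of -0.28, at the 98.0th and 97.4th percentiles. Of all probe sets 28.1% differed by at least as much, and of the 1000 probe sets nearest in level 17.3% did. Its second probe set measured 9.96 and 9.90, a difference of -0.058, which 80.9% of all probe sets matched or passed. The direction was shared and the size was not.

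Of the 3 genes higher for experimenter 2, 2 handle phosphate or lipid, while the lipid transporter *Abca3*, given above, was lower by both probe sets. *Slc34a2* encodes a sodium-phosphate cotransporter of the type 2 cell surface that takes up phosphate from the air space. It measured 12.91 and 13.04, a difference of 0.13, at ranks 111 and 89. *Lpcat1* encodes the acyltransferase that remodels phosphatidylcholine towards the saturated form typical of surfactant. It measured 10.82 and 10.93, a difference of 0.11, at the 96.8th and 97.2nd percentiles. For these genes 60.6% and 65.6% of all probe sets differed by at least as much.

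*Etv5*, an ETS-family transcription factor that helps maintain the type 2 cell state, stood lowest. Its brightest probe set measured 9.03 and 8.89, a difference of -0.13, at the 84.9th and 83.7th percentiles. Its second measured 5.64 and 5.40, a difference of -0.24, at the 41.3rd and 38.6th percentiles, below the median of each array. The probe sets lay 3.38 and 3.49 apart, the widest gap of the genes with 2 probe sets. Of all probe sets, 58.5% differed by at least as much as the brightest of *Etv5* and 34.7% by at least as much as its second. RMA gives no detection call, so whether the second probe set reports signal above background is not known. The RefSeq table names 4 pseudogenes of *Etv5*, and whether either probe set also binds their transcripts was not tested.

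**Figure D2:**
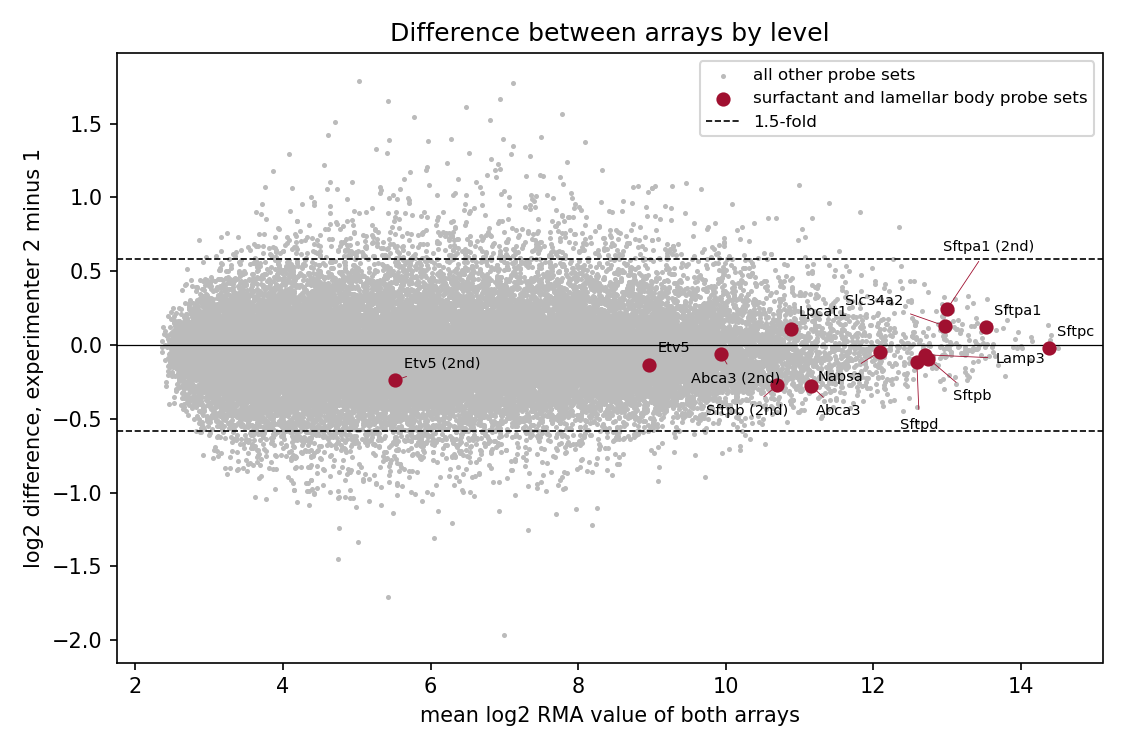
Log2 difference, experimenter 2 minus experimenter 1 (vertical axis), against the mean log2 RMA value of both arrays (horizontal axis) for all probe sets in grey and the 14 probe sets of the 10 genes in red; "2nd" marks the second probe set of a gene and dashed lines mark 1.5-fold. The red points run from -0.28 to 0.24, inside the dashed lines, and most lie towards the right, where the grey points spread less.

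Set against the 1000 probe sets nearest in mean, 11 of the 14 differences were within 1 SD of the differences of those 1000. The 3 beyond it were the brightest probe set of *Abca3* (0.28 in size against an SD of 0.22), the second of *Sftpb* (0.27 against 0.22) and the second of *Sftpa1* (0.24 against 0.21). For none of these genes was the other probe set beyond that SD. Of the 1000 probe sets nearest in mean, 17.3%, 18.6% and 21.3% differed by at least as much as these 3, in that order. Differences of this size are thus common among the 1000 probe sets used for each. For *Sftpc*, *Sftpd*, *Napsa*, *Lamp3*, *Slc34a2*, both probe sets of *Sftpa1* and the brightest of *Sftpb*, these were the same 1000, the brightest of all. That set holds probe sets well below them in level, such as the brightest of *Abca3* at a mean of 11.16, where *Sftpc* had 14.37. For these genes it is therefore not a set of like level. For the 4 genes with 2 probe sets, the direction was shared by both probe sets in 4 of 4, while 53.3% of the 4525 genes with at least 2 probe sets shared it. With 4 genes, this is a description only.

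Other genes of surfactant biology were read in 4 lists chosen by function. The transcription regulators, which include *Nkx2-1*, *Foxa2* and *Cebpa*, had a median difference of -0.045 with 5 of 12 higher for experimenter 2, and 0 were 1.5-fold apart, where 3.24% of all genes were. The brightest of them, *Nfib*, a nuclear factor of lung maturation, measured 10.96 and 10.89. *Nkx2-1*, the homeodomain factor that activates surfactant protein genes, measured 10.46 and 10.32, a difference of -0.14 in the direction of *Sftpb* and against that of *Sftpa1*. *Foxa1*, a forkhead factor named after its value was seen, differed by 0.39, the most in this list, but at 3.98 and 4.37 it lay in the lowest part of both arrays.

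Lipid synthesis genes had a median of 0.011 and spread widely, from -0.49 to 0.61, with 8 of 15 higher. The brightest, *Fabp5*, a fatty acid binding protein, measured 11.38 and 11.29, and *Fasn*, fatty acid synthase, measured 10.85 and 10.86. The genes farthest from 0, named after their values were seen, were *Scd*, the stearoyl-CoA desaturase, at 9.40 and 8.91, *Acsl4*, an acyl-CoA synthetase, at 10.42 and 10.93, and *Gpam*, a glycerol-phosphate acyltransferase, at 4.58 and 5.18. *Gpam* was the 1 gene of the list that was 1.5-fold higher, where 1.93% of all genes were, and its second probe set went the other way by -0.075. Its brightest probe set lay below the median of each array, at the 27.1st and 35.9th percentiles. *Pcyt1a*, the rate-limiting enzyme of phosphatidylcholine synthesis, had a difference of 0.32, and *Lpcat1*, given above, one of 0.11. Other enzymes of that synthesis, named after their values were seen, differed by less in the same direction, except *Chkb*, which went the other way. *Chkb* differed by -0.41, *Chka* by 0.011, and *Chpt1* and *Cept1* by 0.048 each.

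Genes of protein processing, lamellar body sorting and secretion had a median of -0.20 over 23 of 26 measured, with 9 higher and 14 lower for experimenter 2. *Itm2b*, whose BRICHOS domain is shared with the SP-C precursor, was brightest at 13.15 and 13.14. *Ctsh*, the cathepsin that works with napsin A on the SP-B precursor, measured 12.29 and 12.52, a difference of 0.22. *Napsa* differed by -0.045, about the median of all genes. *Hps6*, a subunit of a complex that sorts cargo to lysosome-related organelles, was the 1 gene of the 23 past 1.5-fold, at 6.74 and 7.34 by its single probe set, where 3.24% of all genes were. *Hps3*, a subunit of the same complex, differed by -0.33. *Hps1* and *Hps4*, which form another complex of this pathway, differed by -0.36 and 0.23, so the subunits of neither complex went 1 way. *Rab38* and *Rab27a*, small GTPases of organelle traffic, measured 9.74 and 9.54, and 9.78 and 9.56.

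Genes of surfactant uptake and clearance had a median of -0.18, with 3 of 9 higher. *Prdx6*, a peroxiredoxin with phospholipase activity that degrades surfactant lipid, was brightest, with a difference of -0.22. *Csf2ra*, a subunit of the GM-CSF receptor that macrophages need to clear surfactant, was named after its value was seen and measured 8.29 and 7.84, the largest difference of this list at -0.44. The median of the clearance list and that of the processing list lay farther below 0 than the -0.049 of all genes, and no gene in either was 1.5-fold lower, where 1.31% of all genes were. A median below that of all genes was not particular to these lists. Every cell type and tissue marker list below had one except that of ciliated cells, at 0.055. Endothelial markers had one of -0.19 and markers of other tissues one of -0.26.

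Markers of alveolar cells had medians near that of the 10 genes, -0.056, with no test of the difference. This was not particular to alveolar cells: all genes had a median of -0.049 and fibroblast markers one of -0.054. Further alveolar type 2 markers had a median of -0.070 over 11 genes, led by *Lyz2*, a lysozyme that macrophages also make, at 14.51 and 14.49; *Lgi3* and *Sfta2* measured 10.11 and 10.16, and 10.13 and 10.03. Alveolar type 1 markers, of the flat cells of gas exchange, had a median of -0.064 over 9 genes, led by *Hopx* at 13.11 and 13.44. Of these 9, 3 were higher for experimenter 2, as were 3 of the 10 surfactant genes and 41.1% of all genes. *Alb*, *Apoa2*, *Myh6*, *Ckm*, *Ins2* and *Pou3f4*, markers of other tissues, lay under the median level of all probe sets.

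**Figure D3:**
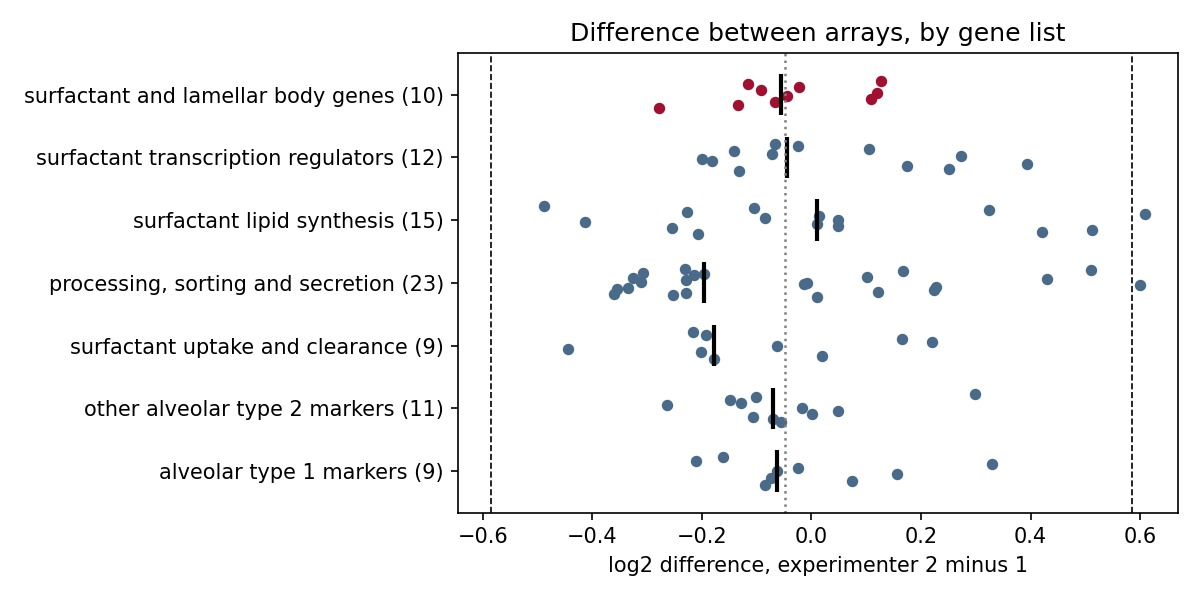
Log2 differences, experimenter 2 minus experimenter 1, of single genes by brightest probe set (points) in the list of 10 and in 6 other lists, with the number measured in brackets; black bars are medians, the dotted line is the median of all genes and dashed lines mark 1.5-fold. The 10 genes lie between -0.28 and 0.13, while lipid synthesis genes run from -0.49 to 0.61.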

How the data were processed

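Total RNA from rat lung was purified on columns, labelled with biotin and hybridised, 1 array per experimenter, per the labels' protocols. The deposited values were made with RMA, per the submitters' processing notes; that these deposited values are log2 was taken from their range, and no source used here states the RMA version or which arrays were normalized jointly. Of 31099 probe sets, 57 controls were kept apart; 20826 of the rest had 1 symbol, 436 several and 9780 none. Entrez identifiers gave current symbols from the RefSeq table of GRCr8. Where a gene had several probe sets, the brightest by mean stood for it. Differences had no further centring. A 1.5-fold difference served as a rule of size in place of a test. The members and the 13 lists were chosen with earlier results of these data known. Named genes were all members, the brightest of each list, every list gene past 1.5-fold at or above the median level, and genes picked for their role or said to be chosen after seeing values. Python 3.11.15, numpy 2.4.6, pandas 2.3.3, statsmodels 0.14.6 and matplotlib 3.10.9 were used, and scripts were tested on simulated data. The number of arrays limits the precision.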

Additional observations from a re-analysis of the deposited data

How the results depend on the processing

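No paired analysis was possible because there is a single array for each experimenter; for that reason none could be left out. Median centring, loess (fraction 0.3), quantile normalization, the mean over probe sets, the second brightest probe set, a filter on level at the median and a 2-fold threshold each left 0 of the 10 genes past the threshold. The largest difference was that of *Abca3* except under the probe set choices: with the mean over probe sets it was that of *Etv5* (-0.19), with *Abca3* at -0.17, and with the second brightest that of *Sftpb* (-0.27), with *Abca3* at -0.058. The median of the 10 ran from -0.076 after quantile normalization to -0.0040 after centring; their mean was -0.040. With no replicates, no spread was measured to hold these shifts against. Centring turned the sign of *Sftpc* and *Napsa*, whose differences were smaller than the shift of 0.052, and gave 5 higher and 5 lower; the other settings kept 3 higher and 7 lower. The filter on level kept all 10 genes, so it could not change them, and 6 genes had 1 probe set. Values near the top of the scale and low values have no stated limits.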

Other observations

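Markers of other lung cells, read beside the surfactant genes, were as follows by brightest probe set. The gene named with each median is the brightest of its list and need not go the way of that list. Club cell markers had a median difference of -0.15 over 5 genes, with *Scgb1a1*, the secretoglobin of club cells, at 14.37 and 14.44 for experimenters 1 and 2. Ciliated cell markers had a median of 0.055 over 5 genes, 3 higher and 2 lower, with *Tppp3* at 12.22 and 12.05. Endothelial markers had a median of -0.19 over 5 genes, 2 higher and 3 lower, with *Ramp2* at 12.47 and 12.48. Fibroblast markers had one of -0.054 over 6, 1 higher and 5 lower, with *Mfap4* at 13.39 and 13.15. Macrophage markers had a median of -0.15 over the 3 measured, 1 higher and 2 lower, with *Mrc1*, the mannose receptor, at 10.56 and 10.42. Blood cell markers had one of -0.13 over 5, 2 higher and 3 lower, with *Ptprc*, the leukocyte antigen CD45, at 10.95 and 11.26. Markers of other tissues had a median of -0.26 over 6, 1 higher and 5 lower, with *Alb*, albumin of liver, at 5.41 and 5.04. Farthest from 0 in their lists, named after their values were seen, were the endothelial *Tie1* (-0.55), the ciliated *Rsph1* (0.51) and the blood cell *Alas2* (-0.43). None of the genes in these lists was 1.5-fold apart, where 3.24% of all genes were.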
